A study of Mus musculus with 18 samples.

Results

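Macrophages hand T cells their costimulatory and inhibitory signals through a small set of surface molecules, and 10 genes for such molecules were followed here across BMDMs of 2 genotypes and 3 activation states. The genes were *Cd40*, *Cd80*, *Cd86*, *Cd83*, *Cd274*, *Pdcd1lg2*, *Icosl*, *Vsir*, *Havcr2* and *Tnfsf9*, chosen by name from the 16314 genes of the count table, and all 10 passed the filter on low counts together with 12021 genes in all. BMDMs are macrophages grown from bone marrow, here from femora of *Prep*-/- mice and of *Prep*+/- littermates on a C57BL6/J background, over 7 days in M-CSF at 50 ng/ml. *Prep* encodes prolyl endopeptidase, and the controls therefore carried 1 intact and 1 disrupted allele in every cell. The age and the number of the donor mice behind each library were not given in the sources used here, and the 3 libraries a group were described as biological replicates. M0 BMDMs received no further stimulus, M1 BMDMs received LPS, a component of the outer membrane of Gram-negative bacteria, at 50 ng/ml for 24 h, and M2 BMDMs received IL-4 and IL-13 at 20 ng/ml each for 24 h. M1 and M2 name the inflammatory and the alternatively activated state. Bulk RNA-seq was performed on 3 libraries in each of the 6 groups, 18 in all.

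T cells respond to antigen according to a second signal given by the antigen-presenting cell. CD80 and CD86 bind CD28, which promotes activation, and CTLA-4, which restrains it, while ICOS ligand and the TNF family member 4-1BB ligand (*Tnfsf9*) sustain T cells that have already been activated. CD40 works in the reverse direction, as the receptor through which helper T cells license macrophages, dendritic cells and B cells. PD-L1 (*Cd274*) and PD-L2 (*Pdcd1lg2*) bind PD-1 and dampen T cells, VISTA (*Vsir*) is an inhibitory B7 relative carried by myeloid cells, and TIM-3 (*Havcr2*) is an inhibitory receptor of T cells and myeloid cells. CD83 marks mature dendritic cells and is known to hold MHC class II and CD86 at the surface.

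Library totals lay between 19068237 and 22598279 counts, and *Prep* itself checked the genotypes, with a log2 fold change of -4.29, -3.74 and -3.77 between *Prep*-/- and *Prep*+/- BMDMs in M0, M1 and M2. All 8 macrophage markers were present, with a sum of 10027 to 48180 CPM (counts scaled to a fixed library total) per library. The sum of 7 dendritic cell markers was 0.454 to 2.78 CPM and that of 6 T cell markers, of which 2 were in the table, 0.0852 to 1.40 CPM. Replicate 3 of *Prep*-/- M0 and replicate 3 of *Prep*-/- M2 stood furthest from the other libraries of their groups, with a chi-square per degree of freedom of 111 to 119.7 against 9.87 to 49.1 for all other pairs of replicates. Leaving out replicate 3 of *Prep*-/- M0 changed no call for the 10 genes between the genotypes in M0, and the calls that depended on replicate 3 of *Prep*-/- M2 are given with their genes. Replicate 1 of *Prep*-/- M0 and replicate 1 of *Prep*-/- M1 held the highest values of several of the 10 genes, and values without them are given for *Cd40*, *Cd86* and the PD-1 ligands.

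All 10 genes are annotated as protein-coding in GRCm39. *Cd274* (chromosome 19, 29344529 to 29365495) and *Pdcd1lg2* (chromosome 19, 29388319 to 29448882) lie on the plus strand with 22.8 kb between them. *Cd80* (38275923 to 38316697, plus strand) and *Cd86* (36424044 to 36486443, minus strand) share chromosome 16, 1789 kb apart. *Vsir* (60182630 to 60208463) and *Icosl* (77905136 to 77919747) lie on the plus strand of chromosome 10. *Cd40* lies on chromosome 2 (164897544 to 164914868), *Cd83* on chromosome 13 (43938251 to 43956634), *Havcr2* on chromosome 11 (46345673 to 46374149) and *Tnfsf9* on chromosome 17 (57412298 to 57414769), each on the plus strand. Protein-coding genes overlap 3 of them on the opposite strand, *Timmdc1* at *Cd80*, *Plgrkt* at *Cd274* and *Cdh23* at *Vsir*, and noncoding genes overlap *Cd80*, *Cd274*, *Pdcd1lg2* and *Tnfsf9*. The libraries were stranded, but whether the counting used strand was not given in the sources used here, so that reads of these partners cannot be told apart from those of the genes. Stretches of the *Cd40* transcript resemble 7 other genes, the longest being 314 bases that match *Ccm2l* at 90.4%. This leaves *Cd40* counts uncertain to a degree that was not tested.

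Promoters in the RefSeq table (build GRCm38.p6) matched 6 of the 10 genes, *Cd274*, *Cd80*, *Havcr2*, *Icosl*, *Pdcd1lg2* and *Vsir*. The 250 bases before the start are shown for the PD-1 ligand pair, of which *Cd274* rose more with LPS and *Pdcd1lg2* more with IL-4 and IL-13, and for *Havcr2*, which was lower without *Prep* in every state. Capitals mark letters found in a search of both strands.
Cd274, chr19:29367188-29367437, plus strand: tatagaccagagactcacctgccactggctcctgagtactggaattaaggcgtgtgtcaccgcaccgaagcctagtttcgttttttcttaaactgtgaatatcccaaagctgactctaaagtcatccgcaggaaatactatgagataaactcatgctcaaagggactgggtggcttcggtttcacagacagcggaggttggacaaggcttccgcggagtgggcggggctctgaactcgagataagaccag
Pdcd1lg2, chr19:29410669-29410918, plus strand: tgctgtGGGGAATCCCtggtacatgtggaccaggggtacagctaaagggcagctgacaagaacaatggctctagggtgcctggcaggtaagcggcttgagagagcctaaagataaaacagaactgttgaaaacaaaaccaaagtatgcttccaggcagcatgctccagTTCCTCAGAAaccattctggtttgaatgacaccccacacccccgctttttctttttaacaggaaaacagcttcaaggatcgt
Havcr2, chr11:46454681-46454930, plus strand: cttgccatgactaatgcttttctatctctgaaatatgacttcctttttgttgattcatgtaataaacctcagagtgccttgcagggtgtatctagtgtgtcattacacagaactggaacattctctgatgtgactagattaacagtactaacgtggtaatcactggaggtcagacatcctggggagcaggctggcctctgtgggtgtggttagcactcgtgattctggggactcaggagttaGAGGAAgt
In the *Pdcd1lg2* promoter, a match to the 10-base NF-kappaB motif lay 244 to 235 bases before the start, and a site of the STAT6 type (TTC, 4 bases of any kind, GAA) lay 82 to 73 bases before it. The second run overlaps the letters GAGGAA, an ETS family motif of the kind bound by PU.1 among others. They are read on the opposite strand at 82 to 77 bases before the start. *Havcr2* had the letters GAGGAA 8 to 3 bases before the start, and *Icosl* an NF-kappaB match 111 to 102 bases before it. *Cd274*, *Cd80* and *Vsir* held none of the motifs searched, and no gene of the 6 held the gamma-activated site (TTC, 3 bases, GAA) or the core of the interferon-stimulated response element (GAAA, 2 bases, GAAA). The shorter ETS letters GGAA, which occur in the *Cd274* promoter shown, were not searched on their own. Among 32851 promoters of the same length, 7.25% held the NF-kappaB motif, 5.85% the STAT6-type site, 23.3% the letters GAGGAA, 7.02% the gamma-activated site and 2.98% the response element core. These matches describe letters in a short window.

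Levels are given as normalized counts, each library's counts scaled by its TMM effective size to the average library, for replicates 1, 2 and 3 in that order. A gene was called where the adjusted p of edgeR's quasi-likelihood test was under 0.05 and the fold change over 1.5, and adjusted p below means that test. In these bulk libraries, fewer cells of a type and less RNA per cell cannot be told apart. The sources tie no replicate to an animal, so p-values measure only the spread between these libraries, which may be technical in part.

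Between the genotypes in M0, 5 of the 10 genes were called higher in *Prep*-/- BMDMs (*Cd86*, *Cd83*, *Cd274*, *Pdcd1lg2* and *Vsir*), where 15.4% of all genes tested were called higher, and 2 lower (*Havcr2* and *Tnfsf9*), where 17.2% were called lower. In M1, 3 were higher (*Cd40*, *Cd274* and *Pdcd1lg2*) against 12.3% of all genes, and 3 lower (*Cd80*, *Icosl* and *Havcr2*) against 10.2%. In M2, 4 were higher (*Cd86*, *Cd83*, *Cd274* and *Pdcd1lg2*) against 6.37%, and 4 lower (*Cd80*, *Icosl*, *Havcr2* and *Tnfsf9*) against 9.82%. Without replicate 3 of *Prep*+/- M2, 5 of these 8 calls in M2 were made, those of *Cd274*, *Icosl* and *Tnfsf9* being lost. For M0, M1 and M2 the 10 genes had median log2 fold changes of 0.77, 0.11 and 0.16, beside 0.02, 0.04 and 0.03 for all genes tested. Both PD-1 ligands were higher in *Prep*-/- BMDMs in all 3 states, as were 1.56% of all genes tested, and *Havcr2* was lower in all 3, as were 2.70%. Each of the 10 genes was called in at least 1 state, where 47.0% of all genes tested were, and 0 were called in opposite directions in different states, where 1.89% were.

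**Figure D1:**
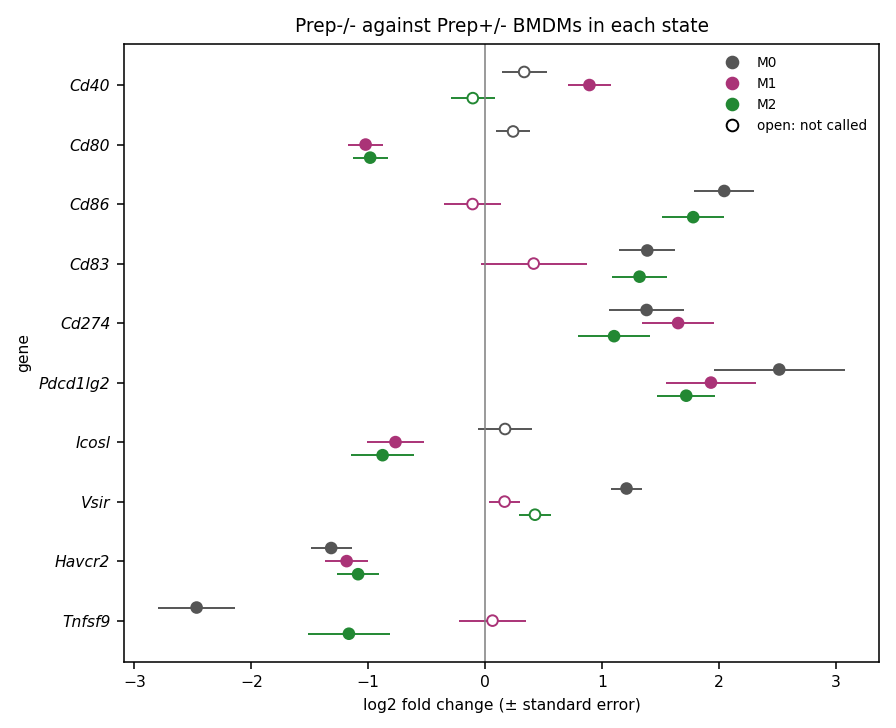
Log2 fold change between *Prep*-/- and *Prep*+/- BMDMs for each gene (x axis, points with standard errors, n = 3 libraries a group), with the states M0, M1 and M2 in grey, magenta and green and open points for genes not called. *Cd274* and *Pdcd1lg2* lie to the right of 0 in all 3 states and *Havcr2* to the left, while *Cd80* is near 0.24 in M0 and near -1 in M1 and M2.

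The knockout effect itself differed between M1 and M0 for 5 of the 10 genes, 1 with a higher difference (*Tnfsf9*) where 12.0% of all genes were called higher, and 4 with a lower one (*Cd80*, *Cd86*, *Icosl* and *Vsir*) where 9.15% were called lower. Between M2 and M0 it differed for 2 genes, *Cd80* and *Vsir*, both lower, where 4.13% of all genes were called lower, and for 0 in the higher direction against 4.53%. In that higher direction edgeR gave 1 of the 10 genes an unadjusted p under 0.05, *Tnfsf9* (2.47-fold difference, adjusted p = 0.0997), which DESeq2 called.

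In the response of *Prep*+/- BMDMs to LPS (M1 against M0), 5 genes were higher (*Cd40*, *Cd86*, *Cd274*, *Pdcd1lg2* and *Tnfsf9*) against 16.7% of all genes, and 3 lower (*Cd83*, *Icosl* and *Havcr2*) against 20.9%. In *Prep*-/- BMDMs, 4 were higher (*Cd40*, *Cd274*, *Pdcd1lg2* and *Tnfsf9*) against 20.9%, and 5 lower (*Cd80*, *Cd83*, *Icosl*, *Vsir* and *Havcr2*) against 21.0%. In the response to IL-4 and IL-13 (M2 against M0), 4 genes were higher in *Prep*+/- BMDMs (*Cd40*, *Cd83*, *Cd274* and *Pdcd1lg2*) against 6.09%, and 3 lower (*Icosl*, *Havcr2* and *Tnfsf9*) against 6.77%. In *Prep*-/- BMDMs the same 4 were higher, against 14.7%, and 4 lower (*Cd80*, *Cd86*, *Icosl* and *Vsir*) against 15.5%. Set directly against M1, M2 BMDMs had more *Cd83* and *Pdcd1lg2* in both genotypes, 2 genes where 20.6% of all genes in *Prep*+/- and 19.3% in *Prep*-/- BMDMs were called higher. Lower in M2 than in M1 were 5 genes in *Prep*+/- BMDMs (*Cd40*, *Cd86*, *Cd274*, *Icosl* and *Tnfsf9*) against 16.6%, and 4 in *Prep*-/- BMDMs (*Cd40*, *Cd274*, *Icosl* and *Tnfsf9*) against 19.2%. These comparisons share libraries, the M0 libraries of a genotype serving both polarization responses.

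**Figure D2:**
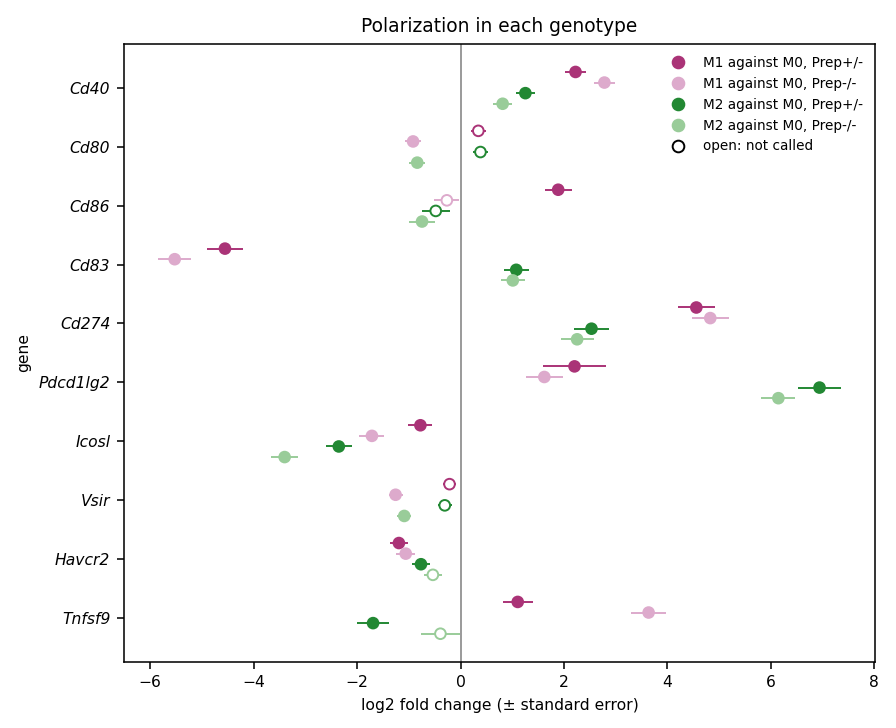
Log2 fold change of each gene in M1 against M0 (magenta) and in M2 against M0 (green), dark for *Prep*+/- and pale for *Prep*-/- BMDMs (points with standard errors, n = 3 libraries a group), with open points for genes not called. *Cd83* lies far to the left in M1 and to the right in M2, and *Pdcd1lg2* lies between 6 and 7 in M2.

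*Cd80* was lower in polarized *Prep*-/- BMDMs than in polarized *Prep*+/- BMDMs. Control libraries had 403, 388 and 379 normalized counts in M0, 478, 488 and 519 in M1, with 473, 523 and 533 in M2. Neither response of the controls passed the test, with log2 fold changes of 0.34 in M1 (SE 0.15, adjusted p = 0.0603) and 0.39 in M2 (SE 0.15, adjusted p = 0.0798). Knockout libraries had 483, 502 and 396 in M0, 192, 259 and 279 in M1, with 207, 304 and 263 in M2, so that all 6 polarized *Prep*-/- libraries lay below all 12 others. *Cd80* fell 1.89-fold in M1 (log2 fold change -0.92, SE 0.15, adjusted p = 7.06e-05) and 1.79-fold in M2 (log2 fold change -0.84, SE 0.15, adjusted p = 0.000277) relative to *Prep*-/- M0. Between the genotypes it was 2.03-fold lower in *Prep*-/- M1 (log2 fold change -1.02, SE 0.15, adjusted p = 0.000209) and 1.98-fold lower in *Prep*-/- M2 (log2 fold change -0.98, SE 0.15, adjusted p = 0.000200), whereas in M0 the log2 fold change was 0.24 (adjusted p = 0.191). Relative to M0, the knockout effect on *Cd80* shifted by -1.26 on the log2 scale with LPS (SE 0.21, adjusted p = 0.000615) and by -1.22 with IL-4 and IL-13 (SE 0.21, adjusted p = 0.00276). In the order of group means, *Prep*+/- M2, *Prep*+/- M1, *Prep*-/- M0 and *Prep*+/- M0 overlapped from each to the next, and the lowest groups, *Prep*-/- M2 and *Prep*-/- M1, overlapped each other.

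*Cd86*, the other CD28 ligand, followed a different course. With *Prep*+/- it had 116, 124 and 107 normalized counts in M0 and 409, 397 and 481 in M1, a rise of 3.70-fold (log2 fold change 1.89, SE 0.26, adjusted p = 1.20e-05), and 94.7, 66.6 and 87.8 in M2. In unstimulated *Prep*-/- BMDMs it was already at 699.6, 441 and 294, 4.13-fold above *Prep*+/- M0 (log2 fold change 2.05, SE 0.26, adjusted p = 1.34e-05), and the *Prep*-/- M0 libraries overlapped those of LPS-stimulated *Prep*+/- BMDMs. The value rested in part on replicate 1, without which the log2 fold change was 1.67 (adjusted p = 4.27e-05). After LPS, *Prep*-/- libraries had 494, 285 and 416 (log2 fold change against *Prep*-/- M0 -0.26, adjusted p = 0.370), and in M1 the genotypes overlapped (log2 fold change -0.11, adjusted p = 0.754). Its knockout effect in M1 minus that in M0 was -2.15 (SE 0.35, adjusted p = 0.000543). In M2, *Prep*-/- libraries had 299, 296 and 261 and lay 3.43-fold above *Prep*+/- M2 (log2 fold change 1.78, SE 0.27, adjusted p = 0.000167). The fall from M0 to M2 in *Prep*-/- BMDMs (log2 fold change -0.74, SE 0.25, adjusted p = 0.0216) was lost without replicate 1 of *Prep*-/- M0, where the log2 fold change was -0.37 (adjusted p = 0.189), without replicate 3 of *Prep*-/- M2 (-0.69, adjusted p = 0.0583), and in both fits of the compared libraries alone. In the order of group means, *Prep*-/- M0, *Prep*+/- M1, *Prep*-/- M1 and *Prep*-/- M2 overlapped from each to the next, and *Prep*+/- M0 and *Prep*+/- M2 stood below them without overlap.

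The balance of the CD28 ligands, taken as *Cd80* counts per *Cd86* count within a library, gave both genes in 1 measure. The M0 ratio was 3.48, 3.11 and 3.55 with *Prep*+/- and 0.690, 1.14 and 1.35 with *Prep*-/- cells. After LPS it was 1.17, 1.23 and 1.08 for the controls and 0.390, 0.910 and 0.671 for the knockout. After IL-4 and IL-13 it was 4.99, 7.85 and 6.08 for the controls and 0.690, 1.03 and 1.01 for the knockout. The genotypes did not overlap in any of the 3 states. The ratio is one of counts, not of levels per length.

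*Icosl*, the gene of the ICOS ligand, fell on stimulation in both genotypes. Its *Prep*+/- libraries had 395, 461 and 507 normalized counts in M0, 293, 242 and 262 in M1, with 81.2, 83.4 and 102 in M2, a 1.71-fold fall with LPS (log2 fold change -0.78, SE 0.23, adjusted p = 0.0105) and a 5.11-fold fall with IL-4 and IL-13 (log2 fold change -2.35, SE 0.25, adjusted p = 3.70e-06). Its *Prep*-/- libraries had 659, 506 and 369 in M0, 133, 171 and 164 in M1, with 70.3, 47.6 and 27.4 in M2, with falls of 3.28-fold (log2 fold change -1.71, SE 0.24, adjusted p = 1.52e-05) and 10.6-fold (log2 fold change -3.40, SE 0.27, adjusted p = 4.98e-08). Within M1 and within M2, *Prep*-/- libraries thus lay below *Prep*+/- libraries without overlap. The genotypes overlapped in M0 (log2 fold change 0.17, adjusted p = 0.563) and differed by a log2 fold change of -0.77 in M1 (SE 0.24, adjusted p = 0.0215) and -0.88 in M2 (SE 0.27, adjusted p = 0.0266). These calls were not firm. For *Icosl* the M1 call was lost without replicate 1 of *Prep*+/- M1 or of *Prep*-/- M1, and the M2 call in 5 of 12 alternatives, among them a fit of the compared libraries with the replicate number as a block (adjusted p = 0.0959) and leaving out replicate 3 of *Prep*-/- M2 (log2 fold change -0.58, adjusted p = 0.0878). The log2 shift of its knockout effect from M0 to M1 was -0.94 (SE 0.33, adjusted p = 0.0492), a call lost in 13 of 18 alternatives. Its order was *Prep*-/- M0, *Prep*+/- M0, *Prep*+/- M1, *Prep*-/- M1, *Prep*+/- M2 and *Prep*-/- M2, with overlap only between the M0 groups.

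*Cd40*, the receptor for CD40 ligand, responded to both stimuli. Controls had 248, 261 and 218 normalized counts in M0, 1116, 1117 and 1167 in M1 (4.67-fold higher, log2 fold change 2.22, SE 0.19, adjusted p = 8.52e-08) and 596, 541 and 598 in M2 (2.39-fold higher, log2 fold change 1.25, SE 0.19, adjusted p = 0.000160). The knockout had 372, 275 and 271 in M0, 2759, 1539.9 and 2014 in M1, with 579, 618 and 417 in M2. *Cd40* was 1.86-fold higher in *Prep*-/- M1 than in *Prep*+/- M1 (log2 fold change 0.89, SE 0.18, adjusted p = 0.00176), with all 3 libraries above the control libraries, and without replicate 1 of *Prep*-/- M1, the highest, the log2 fold change was 0.64 (adjusted p = 0.0157). The log2 fold change between the genotypes was 0.33 in M0 (adjusted p = 0.162) and -0.11 in M2 (adjusted p = 0.721). The shift of the knockout effect from M0 to M1, 0.56, did not pass the test (SE 0.26, adjusted p = 0.134), so that a difference between the states was not shown. This shift was called in 1 of 18 alternatives, without replicate 2 of *Prep*-/- M1. Group means ran from *Prep*-/- M1 through *Prep*+/- M1 and the overlapping M2 groups to *Prep*-/- M0 and *Prep*+/- M0.

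*Tnfsf9*, which encodes 4-1BB ligand, was low in unstimulated *Prep*-/- BMDMs and reached the control level after LPS. M0 libraries had 166, 286 and 310.5 normalized counts with *Prep*+/- and 38.1, 37.2 and 62.5 with *Prep*-/-, a 5.53-fold difference (log2 fold change -2.47, SE 0.33, adjusted p = 2.09e-05), and the genotypes did not overlap. M1 libraries had 474, 615 and 555 with *Prep*+/- and 586, 536 and 596 with *Prep*-/- (log2 fold change 0.06, SE 0.28, adjusted p = 0.878), and the genotypes overlapped. LPS raised it 2.15-fold in *Prep*+/- (log2 fold change 1.11, SE 0.29, adjusted p = 0.00417) and 12.5-fold in *Prep*-/- BMDMs (log2 fold change 3.64, SE 0.33, adjusted p = 1.54e-07). The knockout effect on *Tnfsf9* thus shifted by 2.53 on the log2 scale from M0 to M1 (SE 0.43, adjusted p = 0.000722). M2 libraries had 77.6, 54.1 and 105 with *Prep*+/- and 18.1, 29.6 and 56.8 with *Prep*-/-. It fell with IL-4 and IL-13 in *Prep*+/- BMDMs (log2 fold change -1.69, SE 0.31, adjusted p = 0.000914), while in *Prep*-/- BMDMs the log2 fold change was -0.39 (adjusted p = 0.418). The M2 difference between the genotypes (log2 fold change -1.17, SE 0.35, adjusted p = 0.0236) was called although a *Prep*-/- library lay above a *Prep*+/- library, and for *Tnfsf9* it was lost in 5 of 12 alternatives (adjusted p up to 0.115, without replicate 1 of *Prep*-/- M2). In the order of means, the M1 groups overlapped, *Prep*+/- M0 stood alone, and *Prep*+/- M2, *Prep*-/- M0 and *Prep*-/- M2 overlapped from each to the next.

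*Cd83* fell steeply with LPS and rose with IL-4 and IL-13 in both genotypes. Its controls had 394, 331 and 275 normalized counts in M0, 7.97, 20.2 and 14.1 in M1, with 735, 711 and 661 in M2. After LPS it lay 23.5-fold below M0 (log2 fold change -4.56, SE 0.34, adjusted p = 1.63e-08), and 2.11-fold above M0 after IL-4 and IL-13 (log2 fold change 1.08, SE 0.24, adjusted p = 0.00398). *Prep*-/- BMDMs had 1278, 662 and 674 in M0, 23.1, 14.9 and 18.3 in M1, with 2142, 1733 and 1391 in M2, a 46.1-fold fall with LPS (log2 fold change -5.53, SE 0.32, adjusted p = 1.07e-09) and a 2.02-fold rise with IL-4 and IL-13 (log2 fold change 1.01, SE 0.23, adjusted p = 0.00216). All 6 M1 libraries lay below all 12 others. *Cd83* was 2.62-fold higher in *Prep*-/- M0 (log2 fold change 1.39, SE 0.24, adjusted p = 0.000198) and 2.50-fold higher in *Prep*-/- M2 (log2 fold change 1.32, SE 0.23, adjusted p = 0.000645). Leaving out replicate 1 of *Prep*-/- M0 gave *Cd83* a log2 fold change of 1.01 there (adjusted p = 0.000892). In M1, where counts per library were 7 to 21, the genotypes overlapped (log2 fold change 0.42, adjusted p = 0.494). A shift of its knockout effect from M0 to M1 was not detectable at this depth (-0.97 on the log2 scale, SE 0.52, adjusted p = 0.185). In the order of means *Prep*-/- M2 was highest, *Prep*-/- M0 and *Prep*+/- M2 overlapped, *Prep*+/- M0 followed, and the M1 groups were lowest and overlapped.

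*Cd274*, the gene of PD-L1, rose strongly with LPS and was higher without *Prep* throughout. Control BMDMs had 179, 190.4 and 245 normalized counts in M0, 5448, 4221 and 4867 in M1, with 1223, 1219.7 and 1122 in M2, 23.6-fold (log2 fold change 4.56, SE 0.35, adjusted p = 2.51e-08) and 5.79-fold (log2 fold change 2.53, SE 0.33, adjusted p = 3.33e-05) above M0. *Prep*-/- BMDMs had 810.0, 485 and 311 in M0, 23448, 9787 and 12416 in M1, with 3022, 2628 and 2011 in M2, with rises of 28.5-fold in M1 (log2 fold change 4.83, SE 0.35, adjusted p = 1.36e-08) and 4.77-fold in M2 (log2 fold change 2.26, SE 0.32, adjusted p = 3.05e-05). No neighbouring groups overlapped in the order of means, which ran from *Prep*-/- M1 at 15217 ± 7248 through *Prep*+/- M1, *Prep*-/- M2, *Prep*+/- M2 and *Prep*-/- M0 to *Prep*+/- M0 at 205 ± 35.2 (SD, n = 3). Between the genotypes, *Cd274* was 2.61-fold higher in *Prep*-/- M0 (log2 fold change 1.38, SE 0.32, adjusted p = 0.00220), 3.14-fold in M1 (log2 fold change 1.65, SE 0.31, adjusted p = 0.000950) and 2.15-fold in M2 (log2 fold change 1.10, SE 0.31, adjusted p = 0.0150). Single libraries weighed on these sizes. For *Cd274* the log2 fold change was 0.96 in M0 without replicate 1 of *Prep*-/- M0 (adjusted p = 0.0195) and 1.19 in M1 without replicate 1 of *Prep*-/- M1 (adjusted p = 0.00685), while in M2 the call was lost without replicate 1 of *Prep*-/- M2 (0.96, adjusted p = 0.0631) or replicate 3 of *Prep*+/- M2 (1.07, adjusted p = 0.0503). The knockout effect on *Cd274* minus that in M0 was 0.27 in M1 (SE 0.44, adjusted p = 0.681) and -0.28 in M2 (SE 0.44, adjusted p = 0.734).

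*Pdcd1lg2*, the gene of PD-L2, was close to absent at rest and rose most with IL-4 and IL-13. Its *Prep*+/- M0 libraries held 3, 4 and 1 counts (2.89, 3.34 and 0.848 normalized), against 301, 351 and 259.5 normalized counts in *Prep*+/- M2. With the counts of each group summed, the M2 level was 130.0 times that of M0 (exact 95% interval 65.7 to 302, counting error only), and edgeR gave a log2 fold change of 6.94 (SE 0.41, adjusted p = 3.70e-09), a size that depends on the few M0 counts. LPS gave 7.97, 7.14 and 19.2 in *Prep*+/- BMDMs, 4.78 times M0 in summed counts (2.12 to 12.1), and the call (edgeR adjusted p = 0.00584) was lost without replicate 3 of *Prep*+/- M1, where *Pdcd1lg2* had a log2 fold change of 1.61 (adjusted p = 0.0558). *Prep*-/- BMDMs had 20.1, 12.4 and 9.77 in M0, 60.5, 30.9 and 38.8 in M1, with 1192, 1026 and 787 in M2, above the *Prep*+/- libraries of the same state without overlap. The ratio between genotypes in M0 was 5.96 in summed counts (2.78 to 14.7), with edgeR at 2.52 on the log2 scale (SE 0.56, adjusted p = 0.00157), or 2.19 without replicate 1 of *Prep*-/- M0 (adjusted p = 0.0104). *Pdcd1lg2* did not pass the filter on low counts in a fit of the M0 libraries alone. Nor did it pass in a fit of the *Prep*+/- M0 and M1 libraries alone. In those comparisons the gene was tested only in fits that also held other groups. *Pdcd1lg2* was 3.82-fold higher in *Prep*-/- M1 (log2 fold change 1.93, SE 0.38, adjusted p = 0.00144) and 3.30-fold higher in *Prep*-/- M2 (log2 fold change 1.72, SE 0.25, adjusted p = 0.000125). For *Pdcd1lg2* in M1 the log2 fold change was 1.61 without replicate 1 of *Prep*-/- M1 (adjusted p = 0.0116). In the order of means, *Prep*-/- M0 and *Prep*+/- M1 overlapped, and *Prep*-/- M2, *Prep*+/- M2 and *Prep*-/- M1 above them and *Prep*+/- M0 below them stood apart.

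*Cd274* and *Pdcd1lg2* lie side by side, and their counts within a library stood in different ratios in M1 and M2. At rest there were 62, 57 and 289 *Cd274* counts per *Pdcd1lg2* count with *Prep*+/-, where *Pdcd1lg2* had 1 to 4 counts, and 40.4, 39.1 and 31.8 with *Prep*-/- cells. After LPS the ratio was 683, 591 and 253 for the controls and 388, 316 and 320.3 for the knockout. After IL-4 and IL-13 it was 4.06, 3.48 and 4.32 for the controls and 2.53, 2.56 and 2.55 for the knockout. The genotypes overlapped in M1, and in M0 and M2 every *Prep*-/- library had a lower ratio than every *Prep*+/- library.

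**Figure D3:**
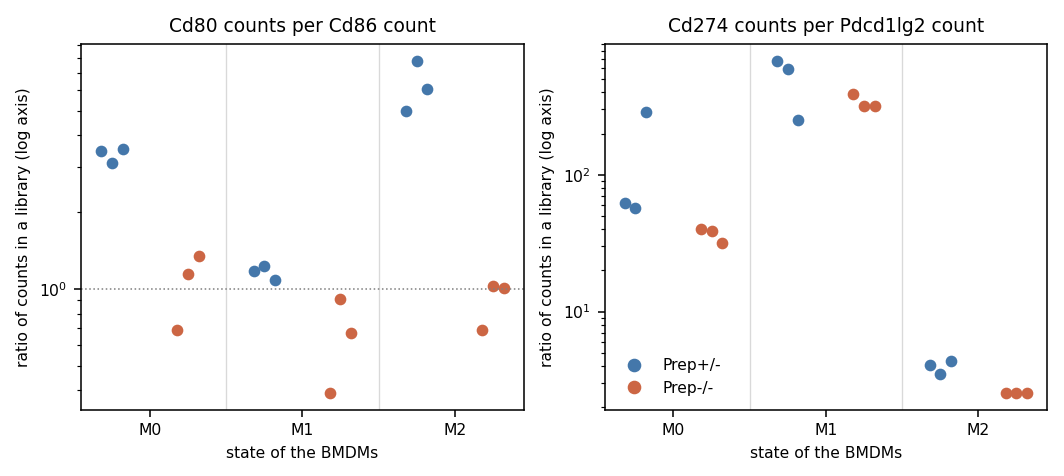
Ratio of counts within each library on log axes, *Cd80* per *Cd86* (left) and *Cd274* per *Pdcd1lg2* (right), for *Prep*+/- (blue) and *Prep*-/- (orange) BMDMs in M0, M1 and M2, with 1 point per library. On the left the genotypes do not overlap within any state, and on the right the M2 libraries lie between 2.53 and 4.32, below all others.

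Of the genes beside the pair, *Jak2*, the kinase of many cytokine receptors, ends 54.0 kb before it and was called higher in *Prep*-/- M1 (log2 fold change 0.89, SE 0.21, adjusted p = 0.00408), in M1 against M0 in *Prep*+/- BMDMs (2.34, SE 0.22) and in M2 against M0 (1.29, SE 0.21). *Insl6*, 41.8 kb before the pair, was higher in *Prep*-/- M1 (0.94, SE 0.21, adjusted p = 0.00299), as was *Ric1*, 50.8 kb after it (1.27, SE 0.24, adjusted p = 0.00112). *Ric1* was higher in *Prep*-/- M2 too (1.01, SE 0.24, adjusted p = 0.00602). From M0 to M1 in *Prep*+/- BMDMs, *Insl6* rose by 1.02 (SE 0.21) and *Ric1* by 0.92 (SE 0.25), and from M0 to M2 they rose by 0.76 and 0.88, calls lost in 5 and in 3 alternatives. *Ermp1*, 136.7 kb after the pair, was lower in *Prep*-/- M0 (-1.41, SE 0.15) and *Prep*-/- M2 (-1.16, SE 0.15). In M0 the log2 fold change of *Jak2* was 0.36, of *Insl6* 0.50 and of *Ric1* 0.56, none of them called.

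*Vsir*, the gene of VISTA, was higher at rest without *Prep* and near the control level after either stimulus. Control BMDMs had 8856, 7465 and 7649 normalized counts in M0, 7199.7, 6766 and 6720.1 in M1, with 6634, 6949.5 and 5821 in M2, and neither response was called (log2 fold change -0.21 in M1, adjusted p = 0.193, and -0.30 in M2, adjusted p = 0.130). In *Prep*-/- M0 it stood at 21130.4, 17356 and 16953, 2.31-fold higher (log2 fold change 1.21, SE 0.13, adjusted p = 4.54e-06), and every library of that group lay above all 15 others. Both stimuli lowered it in *Prep*-/- BMDMs, to 7522, 8043 and 7650.1 in M1 (log2 fold change -1.26, SE 0.14, adjusted p = 8.84e-07) and to 9721, 9574 and 6786 in M2 (log2 fold change -1.09, SE 0.13, adjusted p = 7.65e-06). The genotypes then differed by 0.17 in M1 (SE 0.13, adjusted p = 0.341) and 0.43 in M2 (SE 0.13, adjusted p = 0.0277, under the fold change of 1.5) on the log2 scale. For *Vsir* in M2 the call turned positive without replicate 3 of *Prep*-/- M2, the lowest of that group (log2 fold change 0.59, adjusted p = 0.000958). From M0, the knockout effect on *Vsir* shifted by -1.04 in M1 (SE 0.19, adjusted p = 0.00107) and by -0.78 in M2 (SE 0.19, adjusted p = 0.0171). The M2 difference for *Vsir* was lost without replicate 2 of *Prep*+/- M0 and in a fit of only the compared libraries (adjusted p up to 0.0559). Below *Prep*-/- M0, the means of *Prep*-/- M2, *Prep*+/- M0 and *Prep*-/- M1 overlapped from each to the next, as did those of *Prep*+/- M1 and *Prep*+/- M2.

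*Havcr2*, the gene of TIM-3, was lower in *Prep*-/- BMDMs in each state, and this call held under every alternative run. M0 libraries had 867, 1190.1 and 1138 normalized counts with *Prep*+/- and 354, 569.6 and 357 with *Prep*-/-, 2.49-fold lower (log2 fold change -1.32, SE 0.18, adjusted p = 2.22e-05). M1 libraries had 505, 451 and 444 with *Prep*+/- and 165, 222 and 228 with *Prep*-/-, 2.27-fold lower (log2 fold change -1.18, SE 0.18, adjusted p = 0.000272). M2 libraries had 596, 615 and 670.1 with *Prep*+/- and 275, 326 and 285 with *Prep*-/-, 2.12-fold lower (log2 fold change -1.09, SE 0.18, adjusted p = 0.000359). The genotypes did not overlap in any state. LPS lowered it in *Prep*+/- (log2 fold change -1.19, SE 0.18, adjusted p = 2.73e-05) and in *Prep*-/- BMDMs (log2 fold change -1.06, SE 0.18, adjusted p = 0.000114). IL-4 and IL-13 lowered it in *Prep*+/- BMDMs (log2 fold change -0.76, SE 0.17, adjusted p = 0.00484). In *Prep*-/- BMDMs the log2 fold change of -0.53 stayed under the fold change of 1.5. There *Havcr2* was called without replicate 1 or 3 of *Prep*-/- M0 or without replicate 2 of *Prep*-/- M2. Over 12 alternatives this log2 fold change ran from -0.66 to -0.29, with an adjusted p of 0.00941 to 0.138. Its knockout effect minus that in M0 was 0.13 in M1 (SE 0.25, adjusted p = 0.727) and 0.23 in M2 (SE 0.25, adjusted p = 0.600). *Prep*+/- M0 and *Prep*+/- M2 led the order, *Prep*+/- M1 and *Prep*-/- M0 overlapped, and *Prep*-/- M2 and *Prep*-/- M1 came last.

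**Figure D4:**
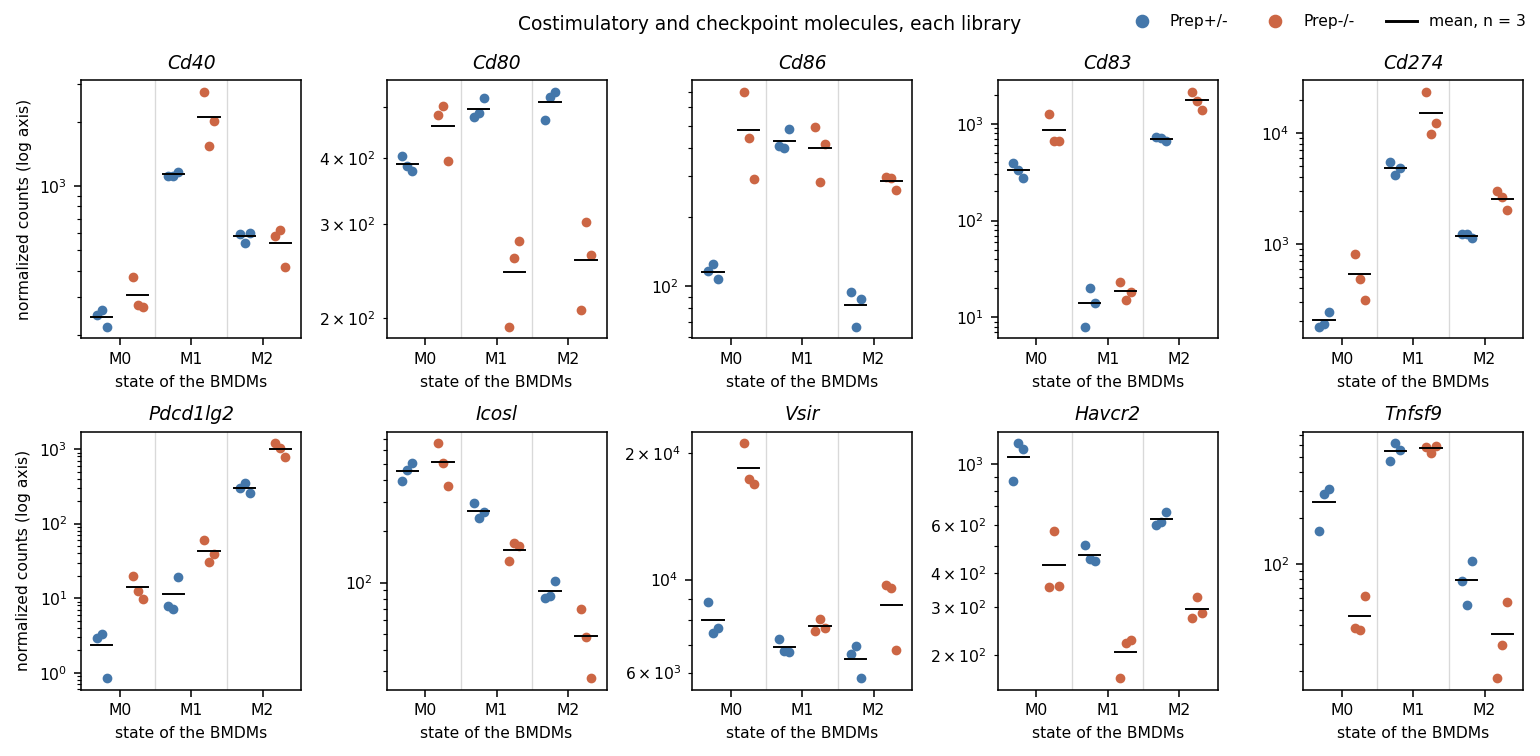
Normalized counts of each gene in each library on log axes, with *Prep*+/- in blue and *Prep*-/- in orange for M0, M1 and M2, and a black bar for the mean of 3 libraries. *Prep*-/- libraries lie above *Prep*+/- libraries of the same state for *Cd274* and *Pdcd1lg2* and below them for *Havcr2*, and the M1 libraries of *Cd83* lie at 7.97 to 23.1.

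Markers of macrophages and of other cells differed between the genotypes. The sum of 8 macrophage markers was 19002 to 22408 CPM in *Prep*+/- M0 and 30386 to 48180 CPM in *Prep*-/- M0. Most of this sum was *Lyz2*, with a mean of 17133 CPM in *Prep*+/- M0 and 32264 CPM in *Prep*-/- M0. The sum of 7 granulocyte precursor markers was 17.2 to 22.3 CPM in *Prep*+/- M0 and 36.0 to 83.8 CPM in *Prep*-/- M0, highest in replicate 1, the library with the highest *Cd86*, *Cd83*, *Cd274* and *Pdcd1lg2* of its group. *Ngp* (means of 10.8 and 28.2 CPM), *Ltf* (6.28 and 18.3 CPM) and *Camp* (1.76 and 4.82 CPM) made up nearly all of it. *Mpo* reached 1.09 CPM, *Prtn3* 1.23 CPM, *Elane* 0.41 CPM and *Ctsg* 0.323 CPM at most in any library. Means of *Mpo* (0.563 and 0.523 CPM) and *Elane* (0.269 and 0.314 CPM) differed little between the genotypes in M0. *Prtn3* (0.238 and 0.662 CPM) and *Ctsg* (0.1004 and 0.2127 CPM) had the higher means in *Prep*-/- M0. The sum of 4 B cell markers was 3.01 to 4.83 CPM in *Prep*+/- M0 and 8.66 to 11.5 CPM in *Prep*-/- M0. *Cd79b* made up nearly all of it, while *Cd79a* reached 0.168 CPM, *Ebf1* 0.0538 CPM and *Ms4a1* 0.0395 CPM at most. Among dendritic cell markers, *Flt3* reached 0.522 CPM and *Zbtb46* 2.44 CPM at most, and the sum was 0.513 to 0.775 CPM in *Prep*+/- M0 and 0.554 to 1.52 CPM in *Prep*-/- M0. In M1 the macrophage sum was 45757 to 47208 CPM in *Prep*+/- and 30999.7 to 37043 CPM in *Prep*-/- BMDMs, the T cell sum 0.225 to 0.323 CPM and 0.865 to 1.40 CPM, and the B cell sum 2.06 to 2.59 CPM and 5.09 to 6.96 CPM. *Lck* made up all of this T cell sum, with means of 0.284 and 1.08 CPM, while *Cd3d* had a mean of 0 CPM in both genotypes. *Lyz2* again carried the macrophage sum in M1, with a mean of 35216 CPM in *Prep*+/- and 23781 CPM in *Prep*-/- BMDMs. *Adgre1* (4984 and 4280 CPM), *Csf1r* (1288 and 1156 CPM) and *Cd14* (1190 and 627 CPM) also had the lower means in *Prep*-/- BMDMs, and *Itgam* had 1581 and 1578 CPM. *Cd68* (919 and 1261 CPM), *Fcgr1* (1369 and 1786 CPM) and *Mertk* (36.1 and 84.8 CPM) had the higher means in *Prep*-/- BMDMs. In M2 the macrophage sum was 10027 to 12203 CPM in *Prep*+/- and 13889 to 19565 CPM in *Prep*-/- BMDMs, and the granulocyte precursor sum 10.7 to 12.7 CPM and 14.1 to 22.5 CPM. *Lyz2* carried this macrophage sum too, with means of 7541 and 12304 CPM. *Csf1r* (1036 and 1711 CPM), *Cd68* (1278 and 1620 CPM), *Mertk* (35.9 and 60.0 CPM) and *Cd14* (53.6 and 64.5 CPM) also had the higher means in *Prep*-/- M2. *Adgre1* had 934 CPM in both, while *Itgam* (363 and 265 CPM) and *Fcgr1* (23.6 and 18.4 CPM) had the lower means in *Prep*-/- M2. The part of these markers in the results was not tested. The calls between the genotypes in M0 held without replicate 1 of *Prep*-/- M0. Leaving it out cannot test that part, because the other *Prep*-/- M0 libraries, at 36.0 and 39.3 CPM of granulocyte precursor markers, still lay above the controls.

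Per kilobase of the canonical transcript, *Vsir* was the most abundant of the 10 genes in every group but *Prep*-/- M1. It had 1649 ± 156 normalized counts per kb in *Prep*+/- M0 and 3813 ± 476 in *Prep*-/- M0 (SD, n = 3). In *Prep*+/- M1, *Cd274* came next to it, with 1227 ± 155 normalized counts per kb against 1423 ± 54.6 for *Vsir*, and in *Prep*-/- M1 *Cd274* ranked first, with 3854 ± 1836 against 1597 ± 56.1 (SD, n = 3). *Pdcd1lg2* ranked last at rest in both genotypes, and moved to rank 7 in *Prep*+/- M2, with 154 ± 23.1 normalized counts per kb, and to rank 4 in *Prep*-/- M2, with 509 ± 103 (SD, n = 3). *Cd83* ranked last in M1 in both genotypes and 2 in *Prep*-/- M0 and *Prep*-/- M2. *Havcr2* ranked 2 in *Prep*+/- M0 and 6 in *Prep*-/- M0.

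The genes whose pattern over the 6 groups was most like that of each member were found among 9601 genes with a mean of at least 5 CPM. Likeness was the root mean square difference between the centred log2 CPM means of the 6 groups, a description without a test. *Vsir* was closest to *Tnfaip8l2*, a restraint on immune signalling also called TIPE2 (0.08), and *Zfp959* (0.10). *Cd80* was nearest *Bin1* (0.14) and *Lpcat1* (0.18), and *Cd40* nearest *Jak2* (0.17) and the heat shock gene *Hspa1a* (0.27). *Cd86* was nearest *Tnfrsf14*, which encodes HVEM (0.19), and *Ctsh*, cathepsin H (0.27). *Havcr2* was nearest *Cenpt* (0.22) and *Ccdc14* (0.23), *Icosl* nearest *Map3k5* (0.30) and *Ssh2* (0.35), and *Tnfsf9* nearest *Ccnd2* (0.42) and *Msr1* (0.44). The steepest patterns had looser neighbours, *Ephx1* (0.58) and *Klhl33* (0.63) for *Cd83*, AA467197 (0.62) and *Gm4951* (0.70) for *Cd274*, and the STAT target *Cish* (0.85) and *Lrrc32* (1.09) for *Pdcd1lg2*. Among the 10 genes themselves, *Cd80* and *Havcr2* were the most alike (0.56) and *Cd83* and *Cd274* the least (4.25).

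Of 25 other costimulatory and checkpoint surface molecules, 19 were tested, and 6 were higher and 2 lower in *Prep*-/- M0 (median log2 fold change 0.44 beside 0.02 for all genes). Of all genes tested, 15.4% were called higher there and 17.2% lower. These shares were 12.3% and 10.2% in M1 and 6.37% and 9.82% in M2. For *Prep*+/- BMDMs they were 16.7% and 20.9% with LPS, and 6.09% and 6.77% with IL-4 and IL-13. In M0 the largest rises with a mean of at least 5 CPM were those of *Sema4a*, a semaphorin that costimulates T cells (from 672 ± 81.5 to 2092 ± 413 normalized counts, log2 fold change 1.64, SE 0.23, adjusted p = 3.80e-05), and *Tnfrsf14*, the receptor of LIGHT and BTLA (log2 fold change 1.59, SE 0.23, adjusted p = 4.71e-05). *Cd276*, the B7 relative B7-H3, was lower (log2 fold change -1.99, SE 0.45, adjusted p = 0.00178). In M1, 5 were higher and 1 lower without *Prep* (median 0.16 beside 0.04), led among those with a mean of at least 5 CPM by the nectin *Nectin2* (log2 fold change 1.23, SE 0.17, adjusted p = 0.000105) and *Sema4d* (log2 fold change 1.04, SE 0.18, adjusted p = 0.000533). In M2, 3 were higher and 1 lower (0.23 beside 0.03), among them *Tnfrsf14* (log2 fold change 1.58, SE 0.23, adjusted p = 0.000160) and *Sema4d* (log2 fold change 1.19, SE 0.18, adjusted p = 0.000199). LPS raised 10 of the 19 and lowered 4 in *Prep*+/- BMDMs (0.88 beside -0.03), with *Cd200* (3.73) and *Lgals9*, the TIM-3 ligand galectin-9 (2.48), rising most on the log2 scale among those averaging 5 CPM or more and *Cd276* falling (-1.66). IL-4 and IL-13 raised 1, *Cd200r1*, the receptor of CD200 (from 1544 ± 91.9 to 3078 ± 70.7 normalized counts, adjusted p = 0.000124), and lowered 3 (-0.25 beside -0.01), among them *Sema4d* (-1.89) and *Icam1* (-0.78, lost in 3 alternatives).

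Of 15 counter-receptors carried mainly by lymphocytes, 6 were tested and 9 were too low or not in the table. The exception in abundance was *Cd28*, the receptor of CD80 and CD86, which had 991 ± 235 normalized counts in *Prep*+/- M0 and 3476 ± 160.3 in *Prep*-/- M0 (SD, n = 3, log2 fold change 1.81, SE 0.19, adjusted p = 3.13e-06). It was also higher in *Prep*-/- M2 (2309.9 ± 641 against 963 ± 55.6, log2 fold change 1.26, SE 0.19, adjusted p = 0.000194) and fell with LPS in *Prep*+/- BMDMs to 96.4 ± 17.4 (log2 fold change -3.36, SE 0.22, adjusted p = 4.20e-09). T cell markers were at 0.120 to 0.273 CPM in *Prep*+/- M0 and 0.0949 to 0.323 CPM in *Prep*-/- M0. *Cd3d* was at 0.0479 CPM or less in every library. Of the 6 tested, 4 were higher in *Prep*-/- M0 (median 1.27 beside 0.02), where 15.4% of all genes were. In M1, 0 were called by edgeR or DESeq2, with 0 at an unadjusted p under 0.05 (0.46 beside 0.04). There 12.3% of all genes were called higher and 10.2% lower. In M2, 2 were higher (0.78 beside 0.03), where 6.37% of all genes were. LPS raised 1 and lowered 3 in *Prep*+/- BMDMs (-1.72 beside -0.03), where 16.7% of all genes were called higher and 20.9% lower. IL-4 and IL-13 raised 1 (-0.25 beside -0.01), where 6.09% of all genes were called higher.

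Of the signal carriers below CD40 and related receptors, 15 were listed and 15 tested. Between the genotypes, edgeR and DESeq2 called 0 lower in M0, M1 or M2. At an unadjusted p under 0.05 in edgeR, 1 was lower in M1, while 9 were higher in M0, 4 in M1 and 8 in M2. Of all genes tested, edgeR called 17.2% lower in M0, 10.2% in M1 and 9.82% in M2. In M0, 6 were higher in *Prep*-/- BMDMs, where 15.4% of all genes were (median 0.35 beside 0.02), led among those with a mean of at least 5 CPM by *Birc3*, the ubiquitin ligase cIAP2 (from 497 ± 25.6 to 1924 ± 715 normalized counts, log2 fold change 1.95, SE 0.21, adjusted p = 3.16e-06), and *Relb*, a subunit of the noncanonical NF-kappaB pathway (log2 fold change 1.44, SE 0.19, adjusted p = 2.14e-05). In M1, 2 were higher, where 12.3% of all genes were (median 0.14 beside 0.04), *Rel* (log2 fold change 0.64, SE 0.23, adjusted p = 0.0399, lost in 3 alternatives) and *Birc2* (log2 fold change 0.62, SE 0.12, adjusted p = 0.00136, lost in 2 alternatives). In M2, 2 were higher, where 6.37% of all genes were (0.32 beside 0.03), *Birc3* (log2 fold change 1.33, SE 0.21, adjusted p = 0.000237) and *Relb* (log2 fold change 0.67, SE 0.19, adjusted p = 0.0195, lost in 3 alternatives). LPS raised 8 in *Prep*+/- BMDMs (0.59 beside -0.03), where 16.7% of all genes were called higher. The largest rises among those with a mean of at least 5 CPM were those of *Traf1* (3.83 on the log2 scale) and *Birc3* (2.62). IL-4 and IL-13 raised *Traf5* (1.59) and *Rel* (0.71, lost in 6 alternatives) and lowered *Map3k14*, the kinase NIK (-0.94), with a median of -0.02 beside -0.01. In that response 6.09% of all genes were called higher and 6.77% lower.

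Of 8 genes that set the surface level of these proteins, *Marchf1*, a ubiquitin ligase that removes CD86 and MHC class II from the surface, was higher in *Prep*-/- BMDMs in M0 (from 709.8 ± 29.1 to 1795 ± 296 normalized counts, log2 fold change 1.34, SE 0.14, adjusted p = 2.46e-06), in M1 (log2 fold change 0.85, SE 0.14, adjusted p = 0.000347) and in M2 (log2 fold change 0.80, SE 0.14, adjusted p = 0.000544). *Cmtm6*, which keeps PD-L1 at the surface, was higher in M0 (log2 fold change 1.05, SE 0.11, adjusted p = 2.46e-06) and in M1 (log2 fold change 0.65, SE 0.11, adjusted p = 0.000470, under a fold change of 1.5 without replicate 1 of *Prep*-/- M1). *Adam10*, a protease that sheds surface proteins, was lower in M0 (log2 fold change -0.72, SE 0.11, adjusted p = 7.15e-05). These made up 2 higher and 1 lower in M0 (median 0.04 beside 0.02), where 15.4% and 17.2% of all genes were. In M1, 2 were higher (0.16 beside 0.04) against 12.3% of all genes, and in M2, 1 was (0.16 beside 0.03) against 6.37%. In *Prep*+/- BMDMs, LPS raised *Marchf1* (2.09 on the log2 scale) and lowered *Adam10* (-0.66, lost in 1 alternative) and *Cmtm4* (-0.62), with a median of 0.09 beside -0.03. Of all genes, 16.7% were called higher with LPS and 20.9% lower. IL-4 and IL-13 changed 0 of the 8 by edgeR's or DESeq2's call, while 3 were lower and 0 higher at an unadjusted p under 0.05 in edgeR (median -0.13 beside -0.01). Of all genes, 6.09% were called higher by edgeR with IL-4 and IL-13 and 6.77% lower.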

How the data were processed

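Total RNA of BMDMs was sequenced from 18 libraries, 3 in each of 6 groups of genotype (*Prep*+/-, *Prep*-/-) and state (M0, M1, M2), as given by the labels. The authors deposited 1 table of raw counts per gene, whole numbers without normalization. Per the labels and the study's methods, libraries were made with a stranded mRNA kit, reads were trimmed with Trimmomatic 0.36 and aligned with HISAT2 2.2.1.0 to GRCm39, and transcripts were assembled with StringTie before counting. The annotation release, the strand setting and the treatment of reads with several matches were not given in the sources used here, which matters for genes that overlap others on the opposite strand. Library totals were 19068237 to 22598279 counts, and few counts limit the precision for *Pdcd1lg2* in M0 and *Cd83* in M1.

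The 10 genes and the other lists were chosen with earlier results of these data known. Genes were filtered with edgeR 4.0.16 (filterByExpr, R 4.3.3, limma 3.58.1), leaving 12021 of 16314, and scaled by TMM (factors 0.818 to 1.20). A quasi-likelihood fit of all 18 libraries gave 9 comparisons and 2 differences of the knockout effect, with Benjamini-Hochberg adjustment over all genes tested. Calls needed a fold change above 1.5 besides an adjusted p below 0.05. Exact 95% intervals of summed counts cover counting error only. Levels per kb used canonical transcript lengths of GENCODE annotation for GRCm39, whose symbols matched 15667 of the 16314 genes. The text names the 10 genes, up to 2 called genes with the largest rise and up to 2 with the largest fall per list and comparison among those whose mean reached 5 CPM, and the 2 genes most like each of the 10. Genes beside the PD-1 ligand pair were chosen by position.

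Alternatives were DESeq2 1.42.0 (the study's tool), DESeq2 size factors in edgeR, no filter, fits of the compared libraries alone, adjusted p alone, the replicate number as a block and leaving out each library. Deviations of same-numbered libraries from their group means correlated above 0.1 for all 3 pairs between the genotypes in M2 (0.249, 0.255 and 0.462) and between M1 and M0 in *Prep*-/- BMDMs (0.201, 0.169 and 0.259). The pairing there rests on these correlations alone, since the labels tie a number to no animal, batch or day, and the other comparisons were not paired. The fitting code was tested on simulated counts.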

Additional observations from a re-analysis of the deposited data

Results flagged for a closer look

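For 5 of the 10 genes the effect of *Prep* loss in M1 differed from that in M0 by edgeR's interaction test. The log2 difference was -1.26 for *Cd80* (SE 0.21, adjusted p = 0.000615), -2.15 for *Cd86* (SE 0.35, adjusted p = 0.000543), -0.94 for *Icosl* (SE 0.33, adjusted p = 0.0492), -1.04 for *Vsir* (SE 0.19, adjusted p = 0.00107) and 2.53 for *Tnfsf9* (SE 0.43, adjusted p = 0.000722). The *Icosl* difference was near the threshold, with an adjusted p of 0.0164 to 0.130 over 18 alternatives. Between M2 and M0 the difference was -1.22 for *Cd80* (SE 0.21, adjusted p = 0.00276) and -0.78 for *Vsir* (SE 0.19, adjusted p = 0.0171). *Cd80* and *Vsir* were therefore past the threshold in both interactions. Both interactions share the M0 libraries.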

How the results depend on the processing

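Over the 9 comparisons between groups, 66 of 90 values for the 10 genes were called, 60 of them under every alternative in which the gene passed the filter. *Pdcd1lg2* did not pass it in M0 libraries fitted alone, nor in *Prep*+/- M0 and M1 libraries fitted alone. The 6 calls lost under at least 1 alternative were *Cd274* between the genotypes in M2, *Cd86* from M0 to M2 in *Prep*-/- BMDMs, *Icosl* between the genotypes in M1 and in M2, *Pdcd1lg2* from M0 to M1 in *Prep*+/- BMDMs and *Tnfsf9* between the genotypes in M2. The 4 values that became calls under at least 1 alternative were *Havcr2* in M2 against M0 and against M1 in *Prep*-/- BMDMs, *Cd86* in M2 against M1 in *Prep*-/- BMDMs and *Vsir* between the genotypes in M2. The number of the 10 genes whose knockout effect differed between M2 and M0 was 2, against 4 with DESeq2, 1 in a fit of only the compared libraries and 1 to 4 when single libraries were left out (1 without replicate 2 of *Prep*+/- M0, 4 without replicate 1 of *Prep*-/- M2). Between the genotypes in M2 it was 8, and 5 to 8 when single libraries were left out, 5 without replicate 3 of *Prep*+/- M2.

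With a replicate block, fitted to the compared libraries, 7 of the 10 genes were called between the genotypes in M2, *Icosl* losing its call (log2 fold change -0.93, adjusted p = 0.0959), and 9 from M0 to M1 in *Prep*-/- BMDMs, as without the block. In the unpaired comparisons, *Cd80* in M2 against M1 in *Prep*+/- BMDMs changed sign with this block (-0.00081, adjusted p = 0.996). Other values that changed sign did so when 1 library was left out, and were called neither way. Their ranges were -0.19 to 0.69 and -0.53 to 0.15 for the differences of *Cd274* in M1 and M2, -0.24 to 0.32 for *Cd83* and -0.50 to 0.11 for *Cd86* in M2, -0.208 to 0.0606 for *Cd40* between the genotypes in M2, -0.0527 to 0.346 for *Icosl* in M0, -0.304 to 0.0734 for *Cd86* and -0.0477 to 0.148 for *Tnfsf9* in M1, and, in *Prep*-/- BMDMs, -0.55 to 0.11 for *Cd86* in M1 against M0 and -0.0415 to 0.23 for *Cd80* in M2 against M1.

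Over all genes, calls between the genotypes in M1 numbered 2700, against 4370 by adjusted p alone and 1742 without replicate 1 of *Prep*-/- M1. In M2 they numbered 1947, against 2967 by adjusted p alone, 2627 without replicate 3 of *Prep*-/- M2 and 1426 without replicate 1 of *Prep*-/- M2. Calls from M0 to M2 in *Prep*-/- BMDMs numbered 3636, against 2341 with the block in the compared libraries. Differences of the knockout effect between M2 and M0 numbered 1041, against 562 in the compared libraries, 669 with the block there, and 502 and 555 without replicates 2 and 3 of *Prep*+/- M0, 557 and 609 without replicates 1 and 2 of *Prep*+/- M2. The cause was not tested.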
